A study of Mus musculus with 8 samples.

Results

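DNA replication and S phase genes were compared between control (Ctrl) and Psat1iKO libraries made from mouse leg muscle at day 3 after injury. The set holds 49 genes listed by symbol for their function, from the origin licensing factors to the polymerases, and all 49 were measured, in 123 of the 36743 rows and among the 16573 genes of the authors' deposited table. A gene may have several rows, written as the symbol with a final dot and digits, and the row with the highest mean count is called its leading row. Rows were matched to the list by symbol, with no use of their values.

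Both groups came from tibialis anterior with extensor digitorum longus injured with notexin at 2 mg/mL, a venom phospholipase that destroys muscle fibres, and each group had 4 libraries of poly(A) RNA. The genotype labels are Ctrl and Psat1iKO (the sample titles write Psat1KO), and the labels do not give the age or sex of the mice, the control genotype, or the driver and timing of the deletion. The cell type label is muscle stem cell, with sorting by FACS, whereas the design text describes RNA extracted from the muscles. Markers of muscle stem cells and myoblasts were the most abundant of the cell type lists, with a median mean count of 12545, against 1304 for myofibre, 90.8 for macrophage and 12.2 for endothelial markers. Whether each library is a different mouse is not stated, so the p-values rest on library-to-library spread that may be technical only.

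DNA replication starts when the origin recognition complex, Cdc6 and Cdt1 load the ring of Mcm2 to Mcm7 onto DNA. The ring becomes an active helicase once Cdc45 and the GINS complex join it in S phase, and polymerases, the sliding clamp Pcna and its loader then copy both strands. Transcription factors of the E2F family drive many of these genes as a cell enters S phase, and muscle stem cells, which are quiescent in resting muscle, enter the cell cycle after injury. The series' title names the serine biosynthesis pathway, in which Psat1 is an aminotransferase and which feeds one-carbon units to nucleotide synthesis. The comparison therefore asks whether transcripts of the replication machinery differ between the genotypes at this time.

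Promoters of these genes are shown for the recognition sequence of E2F factors. As these factors drive many S phase genes, the share with a match is not independent of the choice of members. Words were searched on both strands, and those of E2F type were TTTCCCGC, TTTCGCGC, TTTGGCGC and TTTGCCGC, and matches may overlap. The window was RefSeq's 250 bases before to 50 after an annotated start of a gene in GRCm38.p6, which was given for 39 of the 49 genes. That start can lie inside the gene's full span, as for Orc1, Cdc6 and Lig1. Of the 22 matches in members, 8 lay after the start. A match was found in 16 of these 39 genes (41.0%), against 2.61% of all 27025 genes with a window and 4.29% of the 12770 that were also measured. The median GC content was 63.2% in the members' windows and 52.7% in all windows. The stretches below are from genes that load or form the helicase, written 5′ to 3′ along the gene's strand, with the matched words in capitals.
Mcm3, chr1:20820263-20820290, minus strand: GGAAAacttgggaagtTTTGGCGCcaag
Mcm5, chr8:75109340-75109379, plus strand: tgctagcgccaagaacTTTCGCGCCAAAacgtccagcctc
Mcm6, chr1:128359792-128359831, minus strand: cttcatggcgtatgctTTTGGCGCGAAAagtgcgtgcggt
Mcm6, chr1:128359729-128359768, minus strand: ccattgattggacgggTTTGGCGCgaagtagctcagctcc
Mcm7, chr5:138171844-138171883, minus strand: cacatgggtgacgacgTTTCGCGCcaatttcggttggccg
Orc1, chr4:108579411-108579450, plus strand: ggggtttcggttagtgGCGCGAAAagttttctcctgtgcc
Cdc6, chr11:98907997-98908036, plus strand: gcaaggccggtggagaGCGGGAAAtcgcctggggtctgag
Cdt1, chr8:122568031-122568064, plus strand: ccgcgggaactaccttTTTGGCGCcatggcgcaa

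In the Mcm5 stretch and the upper Mcm6 stretch the capitals hold a pair of overlapping matches, one on each strand. The Mcm3 stretch opens with the end of a further match. The other genes with a match were Clspn, Dtl, Gins3, Hells, Lig1, Pola1, Pold1, Rfc3 and Uhrf1. The CCAAT word, which the factor NF-Y binds, was present in 24 of the 39 genes (61.5%) against 42.7% of the measured genes. The words TTTGAA and TTCGAA, known from genes of mitosis, were present in 7 of 39 (17.9%) against 17.4%. A match is a description of the letters and does not show binding.

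No row of any of the 49 genes had an adjusted p under 0.05 (DESeq2 Wald test, 0 of 123 rows), where 0.656% of all rows in the authors' deposited table did. Counted by gene, 0 of 49 had a called row, against 1.39% of all genes. When the p-values were adjusted over leading rows alone, 0 of 49 were called against 0.223%. At an unadjusted p under 0.05 there were 5 of the 123 rows (4.07%), against 6.04% of all rows, and 0 of the 49 leading rows, against 4.09%. The lowest p of a leading row was 0.0795, that of Orc6, in the authors' deposited table.

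The transcripts were abundant and their levels lay close together in the groups. The table gives for each row a mean over all 8 libraries and a fold change, from which a fitted mean per group was rebuilt. Values per library were not analysed here, so no SD can be given, and the errors are the authors' standard errors. The leading rows had mean normalized counts from 164 to 17275, with a median of 2279. Their median log2 fold change, Psat1iKO minus Ctrl, was -0.0132, and that of all leading rows was -0.0052. Summed over every row of the 49 genes, the fitted means were 199807 in Ctrl and 198966 in Psat1iKO, which is -0.01 as a log2 ratio. Of the leading rows, 30 lay below 0 and 19 above, and in the range of means that the members span 55.3% of all leading rows lay below 0.

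**Figure D1:**
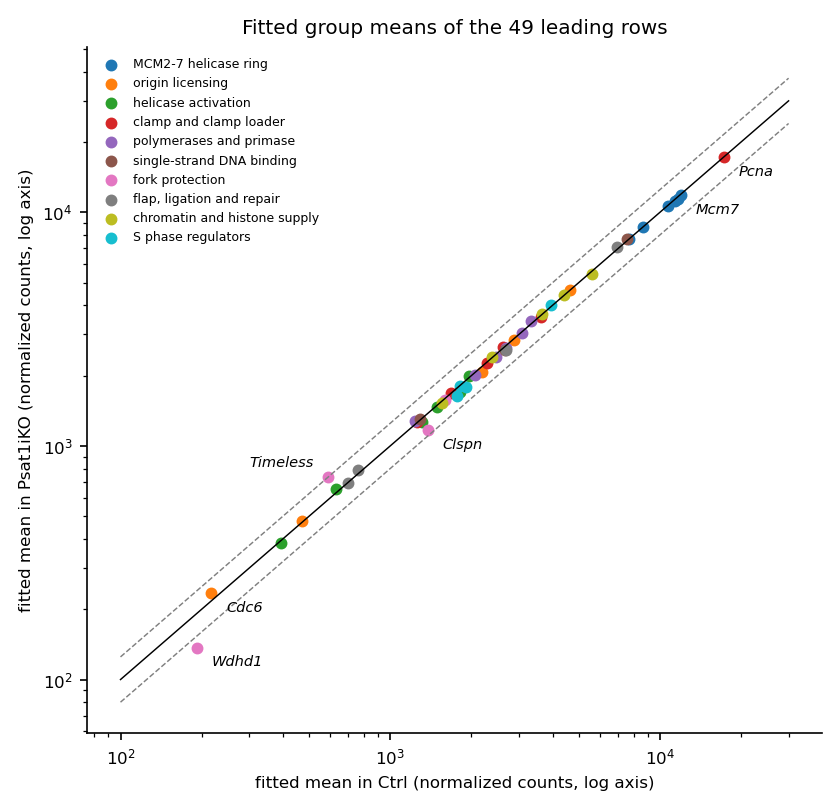
Fitted mean of the leading row in Ctrl (x axis) and Psat1iKO (y axis), in normalized counts on log axes, for the 49 genes coloured by role; the solid line marks equality and the dashed lines a 1.25-fold difference. All points but that of Wdhd1 lie between the dashed lines, with Timeless, at 589 and 734, at the upper line.

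The subunits of the helicase ring were the most uniform of the larger groups, with log2 fold changes from -0.03 to -0.0003 and standard errors from 0.0562 to 0.0760 in the authors' deposited table. Mcm2 had fitted means of 10750 in Ctrl and 10591 in Psat1iKO, a fold of 0.985 with a 95% interval of 0.907 to 1.07. Mcm3 stood at 11338 and 11139, a fold of 0.982 (0.910 to 1.06). Mcm4 had 7708 and 7685, a fold of 0.997 (0.899 to 1.11). For these 3 subunits the interval includes 1 and lies within a 1.25-fold change.

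The other ring subunits were as level. Mcm5 had fitted means of 8682 and 8680, a fold of 0.9998 (0.903 to 1.11). For Mcm6 they were 11681 and 11421, a fold of 0.978 (0.900 to 1.06). Mcm7 had 12003 and 11862, a fold of 0.988 (0.914 to 1.07). All 6 subunits lay below equality by less than their standard errors. Mcm4 and Mcm5 lay above it once values were centred on the median of all leading rows. When adjusted over leading rows 0 of 6 were called, against 0.223% of all leading rows.

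Genes of origin licensing had 3 members above and 2 below equality. None of the 5 was called when adjusted over leading rows, against 0.223% of all leading rows. Orc1, of the origin recognition complex, had fitted means of 471 and 479, a fold of 1.02 (0.772 to 1.34). Orc6, of the same complex, had 2190 in Ctrl and 2073 in Psat1iKO, a fold of 0.947 (0.891 to 1.01), and its adjusted p was 0.951 in the authors' deposited table. Cdc6, which brings the ring to origins, had 217 and 234, a fold of 1.08 (0.754 to 1.54). The interval was narrowest for Orc6 and widest for Cdc6 in this group. Cdt1, the partner of Cdc6, was level at 4623 and 4639 (fold 1.003, 0.926 to 1.09). Dtl, part of a ubiquitin ligase that removes Cdt1 in S phase, had 2877 and 2848 (fold 0.990, 0.888 to 1.10).

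Factors that activate the helicase had 4 members below and 2 above equality. Cdc45, which joins the ring, had fitted means of 1820 in Ctrl and 1706 in Psat1iKO, a fold of 0.937 (0.863 to 1.02). Mcm10, which acts in the same step, had 1957 and 1993, a fold of 1.02 (0.876 to 1.18). The GINS subunits spanned a log2 fold change of -0.05 to 0.05. Gins1 had 630 and 655, Gins2 1306 and 1269, Gins3 395 and 383, and Gins4 1496 and 1472. The lowest unadjusted p of the 4 was 0.400 in the authors' deposited table.

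The sliding clamp and its loader were level. Pcna (chr2:132249286-132253180 in GRCm38), the clamp that holds polymerases on DNA, had the highest count of the set, with fitted means of 17350 and 17200 and a fold of 0.991 (0.917 to 1.07). Rfc2, a loader subunit, had the smallest standard error of all members, 0.0319 in the authors' deposited table. Its fitted means were 2615 and 2659, a fold of 1.02 (0.974 to 1.06). The fold was 0.983 for Rfc1, 1.004 for Rfc3, 1.001 for Rfc4 and 0.990 for Rfc5, and over the 5 loader subunits the intervals ran from 0.902 to 1.09.

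Polymerase and primase genes had 2 members above and 4 below equality. Pola1, the catalytic subunit of polymerase alpha, had fitted means of 2680 and 2621, a fold of 0.978 (0.836 to 1.14), and its partner Pola2 had 2465 and 2399, a fold of 0.973 (0.856 to 1.11). The primase subunits that make the RNA primers lay on either side, with Prim1 at 2054 and 2004 (0.976, 0.893 to 1.07) and Prim2 at 1235 and 1273 (1.03, 0.968 to 1.10). Pold1, catalytic subunit of the lagging strand polymerase delta, had 3324 and 3425 (1.03, 0.920 to 1.15). Pole, that of the leading strand polymerase epsilon, had 3092 and 3050 (0.986, 0.841 to 1.16). The interval of each of these 6 genes held the point values of the other 5, and differences between the genes were not tested.

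Single-strand DNA binding protein is a trimer, and its genes were level as well. Rpa1 had fitted means of 7535 and 7669 with a fold of 1.02 (0.950 to 1.09), Rpa2 had 2657 and 2577 with 0.970 (0.891 to 1.06), and Rpa3 had 1291 and 1310 with 1.02 (0.932 to 1.11). Genes that finish and repair the new strand were next. Fen1, the flap nuclease of Okazaki fragments, had 2676 and 2562, a fold of 0.957 (0.818 to 1.12). Lig1, the ligase that joins the fragments, had 6950 and 7097, a fold of 1.02 (0.929 to 1.12). The repair exonuclease Exo1 stood at 759 and 792 (1.04, 0.795 to 1.37) and Ung, which removes uracil from DNA, at 695 and 692 (0.995, 0.903 to 1.10). None of these 7 genes was called when adjusted over leading rows, against 0.223% of all leading rows.

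Genes that rebuild chromatin behind the fork were level within their errors. The subunits of chromatin assembly factor, which deposits histones on new DNA, had folds of 1.003 (Chaf1a, 0.880 to 1.14) and 0.987 (Chaf1b, 0.882 to 1.10). Uhrf1, which reads hemimethylated DNA and recruits the methyltransferase Dnmt1, had fitted means of 5621 and 5425, a fold of 0.965 (0.887 to 1.05). Hells, a chromatin remodeller, had 2387 and 2399, a fold of 1.005 (0.835 to 1.21). Slbp, which binds the stem-loop of histone messenger RNAs, had 4399 and 4408, a fold of 1.002 (0.896 to 1.12).

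Regulators of S phase entry had 1 member above and 3 below equality. Ccne1, a cyclin E that activates Cdk2, had fitted means of 3942 and 4020, a fold of 1.02 (0.953 to 1.09). E2f1, an activator of the E2F family, had 1821 and 1804, a fold of 0.991 (0.894 to 1.10). E2f8, a repressor of the same family, had 1908 and 1784, a fold of 0.935 (0.834 to 1.05). Ccne2, the other cyclin E, had 1770 and 1641, a fold of 0.927 (0.745 to 1.15). Genes with an E2F-type word in the window had a median log2 fold change of -0.0075 (16 genes) and those without one -0.0149 (23 genes). This difference was not tested. Of the 16 genes 0 were called when adjusted over leading rows, against 0.223% of all leading rows.

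**Figure D2:**
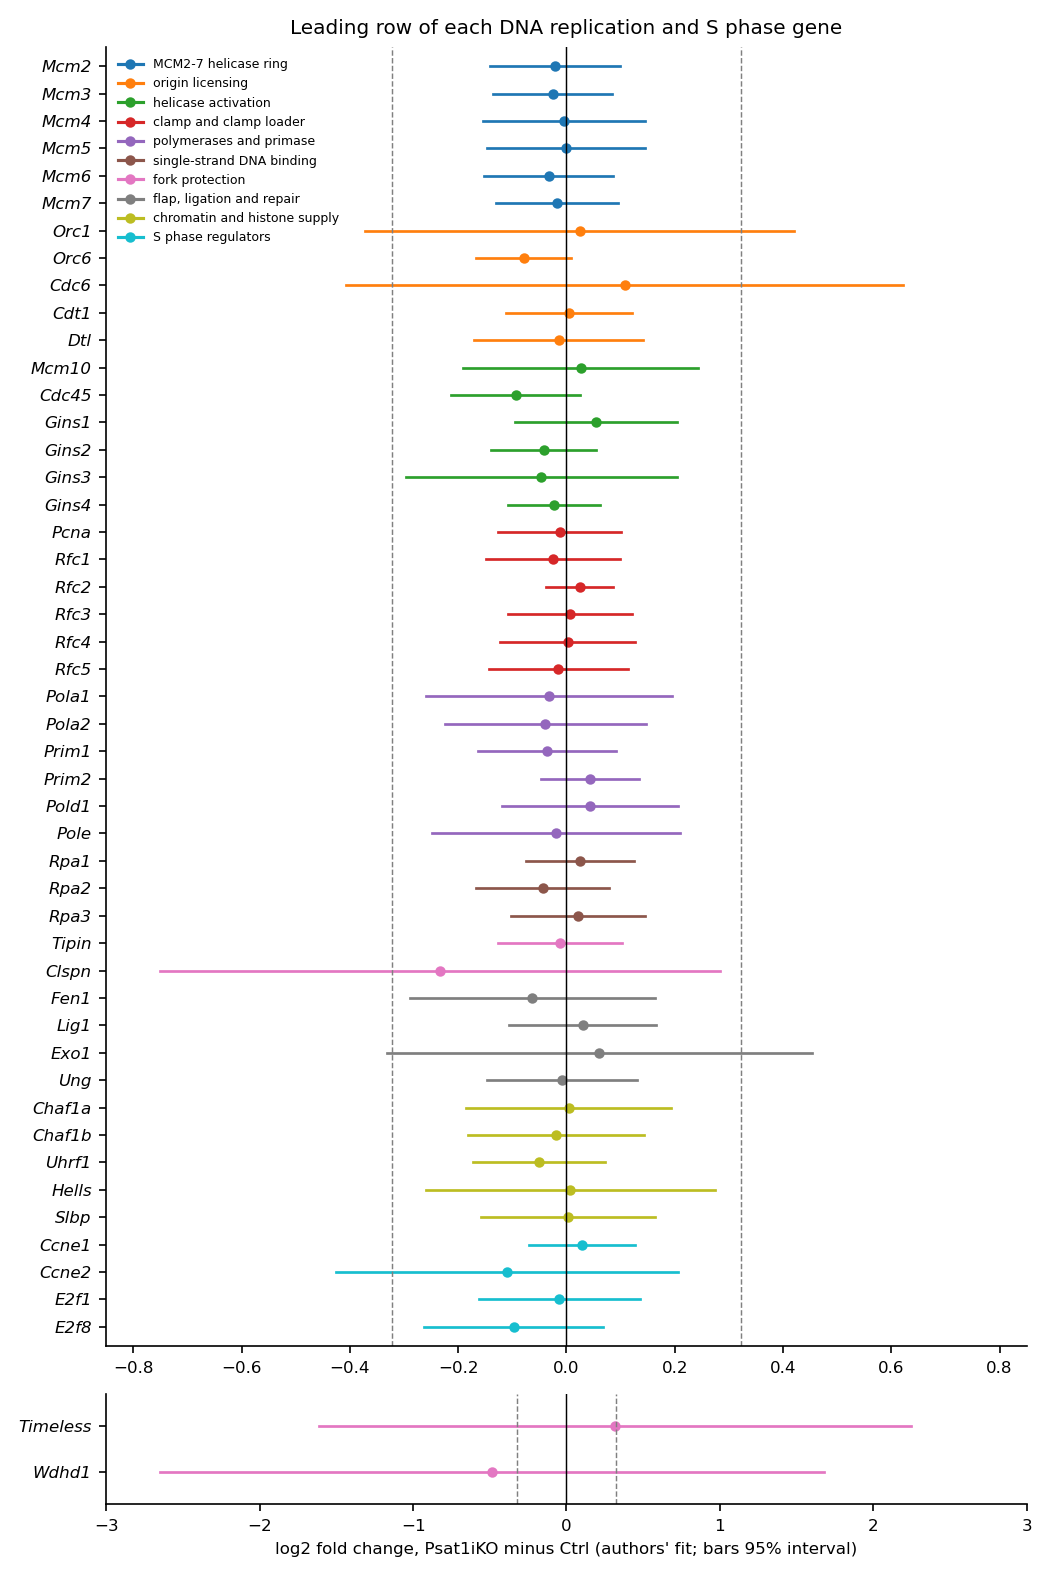
Log2 fold change, Psat1iKO minus Ctrl, of the leading row of each gene with its 95% interval from the authors' standard error, coloured by role; the lower panel has a wider axis for Timeless and Wdhd1, and dashed lines mark a 1.25-fold change. All 49 intervals include 0, and 42 lie wholly within the dashed lines.

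The size of change that the measurements leave possible was small for most members. The 95% interval lay inside a 1.25-fold change either way for 42 of 49 leading rows (85.7%), against 57.7% of the 9196 leading rows in the same range of mean counts. It lay inside 1.1-fold for 12, inside 1.5-fold for 45 and inside 2-fold for 47. The genes outside 1.25-fold were Orc1, Ccne2, Exo1, Cdc6, Clspn, Timeless and Wdhd1. The point value itself lay within 1.1-fold for 46 of 49, against 76.3% in that range. The median mean count was 2279 for the members and 1170 for all leading rows in that range. These shares are therefore not matched for abundance.

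**Figure D3:**
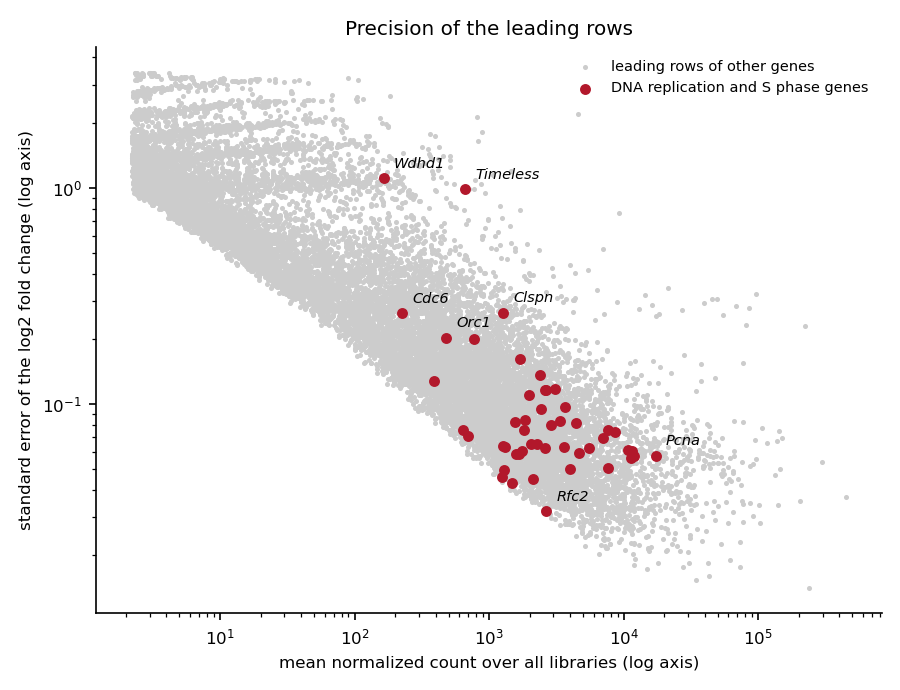
Standard error of the log2 fold change against mean normalized count, both on log axes, for the leading row of each gene; red points are the 49 DNA replication and S phase genes and grey points all others. Most red points lie at a standard error near 0.07, their median being 0.0708, while Timeless (0.983) and Wdhd1 (1.10) lie far above it.

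The fork protection group was the exception in precision. Timeless and Tipin form a complex that keeps the helicase and polymerases together, Clspn relays stalled forks to the checkpoint kinase Chek1, and Wdhd1 links the helicase to polymerase alpha. Tipin was level at 1593 and 1580 (fold 0.992, 0.916 to 1.07). The leading row of Timeless had fitted means of 589 and 734, a fold of 1.25 with an interval of 0.327 to 4.73. That of Wdhd1 had 191 and 137, a fold of 0.715 (0.159 to 3.21), and that of Clspn 1377 and 1171, a fold of 0.850 (0.594 to 1.22). These are 3 of the 4 widest intervals of the set, with that of Cdc6, and a difference between genotypes was not detectable at this precision.

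Counts of several members were divided among rows, which the table does not tie to named isoforms. Of the 49 genes, 20 had 1 row and 29 had more, up to 8 for Timeless. The leading row held at least 90% of the gene's counts for 32 genes and under 50% for 4, which were Timeless (30.9%), Clspn (42.4%), Uhrf1 (46.5%) and Ccne2 (48.7%). When all rows of a gene were summed, 48 of 49 totals differed by less than 1.1-fold, against 83.7% of all genes with a total of at least 100. The remaining gene was Wdhd1, at 226 in Ctrl and 172 in Psat1iKO, and these sums have no test. The shares within 1.1-fold were not matched for abundance.

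The 5 rows with an unadjusted p under 0.05 were all minor rows, 3 higher and 2 lower in Psat1iKO. The minor row Timeless had fitted means of 378 and 587 (0.63 ± 0.277 on the log2 scale, adjusted p 0.597 by DESeq2 per the authors' deposited table). Row Timeless.3 went the other way, from 407 to 37.9 (-3.43 ± 1.67, adjusted p 0.767 by DESeq2 in the authors' deposited table). Over all rows Timeless stood at 2132 and 2151. Clspn.2 had 70.0 and 323 (2.21 ± 0.963, DESeq2 adjusted p 0.597), while the Clspn total was 2995 and 3008. For both genes the total differed less between the groups than these minor rows did.

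The remaining rows of this kind were of smaller fold. Uhrf1.2 had fitted means of 1052 and 1314 (0.32 ± 0.145, adjusted p 0.644 by DESeq2 per the authors' deposited table), with the Uhrf1 total at 11797 and 11940. The minor row Orc6 had 173 and 135 (-0.35 ± 0.174, DESeq2 adjusted p 0.776), and here the leading row and the total, 2397 and 2217, lay on the same side. Of the 74 minor rows of the members, 10 had a fold change of at least 2, 5 in each direction, with a median mean count of 36.9.

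**Figure D4:**
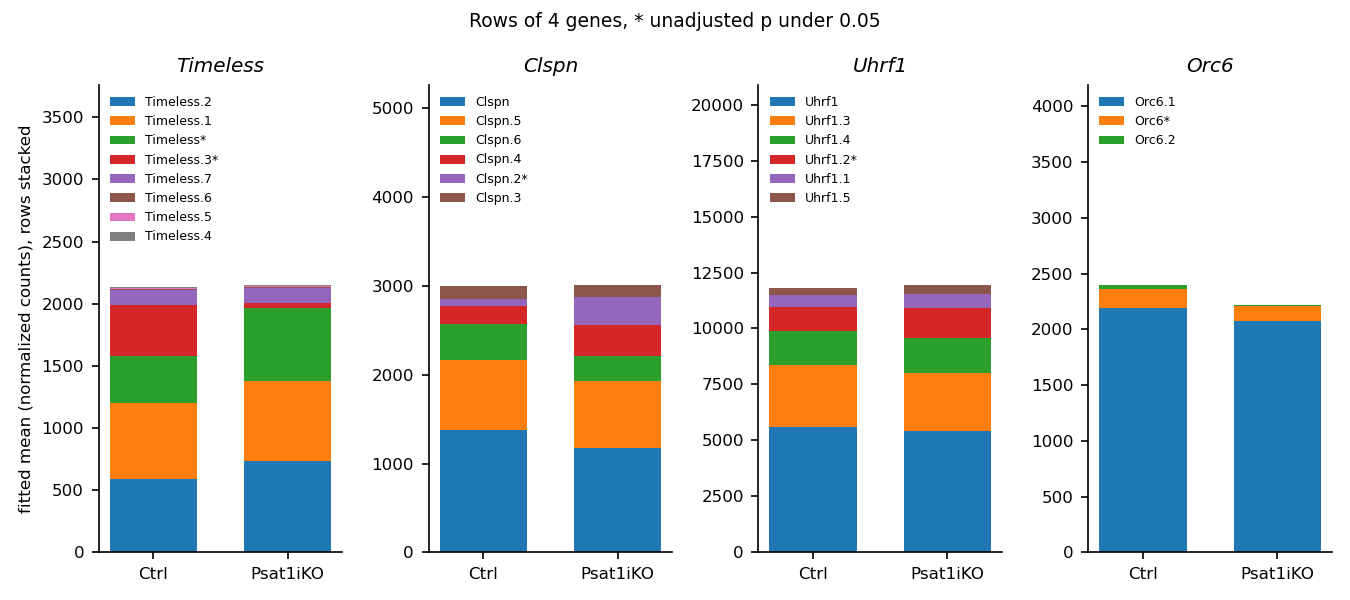
Fitted means of every row of Timeless, Clspn, Uhrf1 and Orc6 in normalized counts, stacked for Ctrl and Psat1iKO, with an asterisk on rows with an unadjusted p under 0.05. The stacks of Timeless reach 2132 and 2151 although the red row Timeless.3 stands at 407 and 37.9.

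Further genes of DNA replication, such as the replication checkpoint and DNA methylation genes, were looked at as a second list. Of 71 further genes of the pathway, 70 were measured in 175 rows, with a median log2 fold change of 0.00 over leading rows, 36 above and 34 below 0. Called rows numbered 2 of 175, both lower in Psat1iKO and both minor, against the 0.656% of all rows given above. Dnmt1.1, of the maintenance DNA methyltransferase, had fitted means of 752 and 249 (-1.59 ± 0.336, adjusted p 0.000896 by DESeq2 per the authors' deposited table), and it held 3.38% of the gene's counts. The Dnmt1 total was 14790 in Ctrl and 14870 in Psat1iKO. The row Hus1, of a checkpoint clamp, had a mean count of 39.6 and was nearly all in Ctrl (adjusted p 0.0366 by DESeq2 per the authors' deposited table), while the Hus1 total was 1114 and 1117.

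Among leading rows of these further genes 0 of 70 were called when adjusted over leading rows, against 0.223% of all leading rows. An unadjusted p under 0.05 was found for 2 of 70, against 4.09%. Cdc7, the kinase that triggers helicase activation, had 684 and 825 on its leading row (0.27 ± 0.109, adjusted p 0.469 by DESeq2 per the authors' deposited table). Pole4, a small subunit of polymerase epsilon, had 1574 and 1436 (-0.13 ± 0.0642, DESeq2 adjusted p 0.753). The next by p were Rnaseh2b at -0.10 ± 0.0575, Pold2 at -0.06 ± 0.0407, Pole2 at 0.21 ± 0.141 and Ssrp1 at -0.08 ± 0.0570 in the authors' deposited table. The Ssrp1 leading row held 43.6% of the gene's counts, and its minor rows lay on both sides of 0. Ssrp1.2 was at 0.30 ± 0.0904 (adjusted p 0.0922, DESeq2) and Ssrp1.3 at -0.66 ± 0.196 (adjusted p 0.0897, DESeq2). The Ssrp1 totals had a log2 ratio of 0.004. Polymerase epsilon subunits Pole2 and Pole4 thus lay on opposite sides of 0, neither called.

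Genes of G2 and mitosis had 0 of 43 rows called (DESeq2), against 0.656% of all rows, and 3 rows at an unadjusted p under 0.05, against 6.04%. Their median log2 fold change over 20 leading rows was 0.02, with 11 above and 9 below 0, against -0.0052 over all leading rows. Of these leading rows 2 had an unadjusted p under 0.05, against 4.09% of all, and both lay on the lower side. They were those of Ccnb2, a mitotic cyclin, at -0.07 ± 0.0281 (adjusted p 0.482), and Bub1, a spindle checkpoint kinase, at -0.40 ± 0.191 (adjusted p 0.727, DESeq2 per the authors' deposited table). The Bub1 rows summed to 2883 in Ctrl and 2913 in Psat1iKO.

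The targeted gene and the cell type markers are given for these libraries. Psat1 itself was lower, at 20204 and 14362 on its leading row (-0.49 ± 0.0675, adjusted p 1.22e-09 by DESeq2 per the authors' deposited table). Muscle stem cell and myoblast markers were present, 10 of 10 measured with means from 1060 to 47464. They summed to 190901 in Ctrl and 189945 in Psat1iKO. Their leading rows lay 5 above and 5 below 0, with a median log2 fold change of 0.0014. Among their rows 1 of 15 was called, against 0.656% of all rows. That row was Myod1, higher in Psat1iKO (0.16 ± 0.0386, adjusted p 0.00580 by DESeq2 per the authors' deposited table). Macrophage markers, 8 of 10 measured, were all on the lower side and summed to 3282 and 740. Their median log2 fold change was -1.85 over leading rows. Of their 10 rows 0 were called, against 0.656% of all rows. At an unadjusted p under 0.05 (DESeq2) there were 3 of 10 rows, against 6.04%, and 2 of 8 leading rows, against 4.09%. These 2 were Lyz2 at -2.63 ± 1.14 (adjusted p 0.595, DESeq2) and Cd14 at -2.15 ± 0.970 (adjusted p 0.641, DESeq2). C1qa and Csf1r of that list have no row in the table used. Pericyte and smooth muscle markers, 6 of 6 measured with 4 on the higher side, summed to 4767 and 6063. In that list 1 of 11 rows was called, against 0.656% of all rows. It was the minor row Myh11.2, higher in Psat1iKO (4.80 ± 1.33, adjusted p 0.0466 by DESeq2 per the authors' deposited table). This row had low fitted means, 3.64 in Ctrl and 102 in Psat1iKO, and held 19.2% of the gene's counts. The Myh11 total was 181 and 369, a log2 ratio of 1.03. The leading row of Rgs5 was at 1.04 ± 0.352 (adjusted p 0.211, DESeq2). Fibro-adipogenic markers, 5 of 6 measured with 4 on the higher side, summed to 1124 and 1326. None of their 10 rows was called, against 0.656% of all rows. Of their rows 1 of 10 had an unadjusted p under 0.05 (DESeq2), against 6.04% of all rows. Endothelial markers, 5 of 5 measured, were also all on the lower side over leading rows and summed to 141 and 109. Their median log2 fold change was -0.92, at a median mean count of only 12.2. Myofibre markers, 9 of 10 measured with 4 higher and 5 lower, summed to 16716 and 14307. Called rows numbered 0 of 10 for endothelial and 0 of 17 for myofibre markers, against 0.656% of all rows. The part of these markers in the values of replication genes was not tested. In such samples the share of cycling cells and the RNA per cell cannot be told apart.

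A few members carry limits of counting. By the GENCODE annotation of GRCm38, exons of 12 members overlap an exon of another measured gene on the opposite strand, among them Chaf1a with Ubxn6 over 2542 bases, Gins2 with Gse1 over 2758 and Rfc2 with Lat2 over 952. The strand setting of the counting is not given in the sources used here, so reads in these overlaps cannot be assigned. Pcna has 2 annotated processed pseudogenes. Clspn and Rpa2 lie within 20 Mb of Pax7 on chromosome 4, and neither was called.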

How the data were processed

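RNA was measured in 8 libraries, 4 Ctrl and 4 Psat1iKO, from 250 ng of RNA each, per the labels. HISAT2 2.2.1, DESeq2 (listed as 4.2.0) and build mm10 were used by the authors, per the submitters' processing notes. Not given in the sources used here were the counting program, annotation, filters and strand setting. The authors' deposited table holds a mean normalized count per row (a signal averaged over libraries, lowest 2.22), a log2 fold change of Ctrl over Psat1iKO with its standard error, a Wald score, and a p-value with its adjusted p, per the file headers. A Benjamini-Hochberg adjustment computed over all rows matched the deposited adjusted p to within 1.39e-05. The authors' deposited enrichment tables give log10 of p and q. Depth per library is unknown.

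Fold changes were turned to Psat1iKO minus Ctrl. Group means were rebuilt from the mean and the fold, assuming equal group sizes, and 95% intervals are 1.96 standard errors either side (Python 3.11.15, pandas 2.3.3). The adjustment was tested on simulated data. The rebuilding was checked only as arithmetic, on values made by the inverse formula. How close the rebuilt means lie to the real group means was therefore not tested. All members were named by their leading row, minor rows by an unadjusted p under 0.05, and of the further pathway genes those with a called row and the 6 leading rows of smallest p, and of each marker list up to 3 leading rows. The members and lists were chosen with earlier results of these data known, so counts and medians stand beside those of all rows and no list has a test. Promoter windows are RefSeq's (GRCm38.p6), and no table of protein sequences was used here.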

Additional observations from a re-analysis of the deposited data

How the results depend on the processing

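Called rows among the members numbered 0 under each of these alternatives: adjustment over leading rows alone, only rows whose mean count reached 100, adjusted p thresholds of 0.01 and 0.1, a 2-fold limit in addition, and leading rows only. It was 5 at an unadjusted p under 0.05. For the further replication genes the 2 called rows became 0 when adjusted over leading rows alone, which leaves minor rows out. They became 1 when only rows whose mean count reached 100 were adjusted. At an unadjusted p under 0.05 there were 10 of 175, against 6.04% of all rows. The members' median log2 fold change ran from -0.0132 to -0.0058 over 4 alternatives. The sign of a leading row's fold, in no case called, turned on gene totals for Ccne2 (0.0114), Clspn (0.00619), Fen1 (0.0512), Gins1 (-0.0133), Hells (-0.00583), Pola1 (0.0124) and Uhrf1 (0.0175), on centring for Mcm4 (0.000883) and Mcm5 (0.00484), and on the row of smallest standard error for Wdhd1 (0.51), where a row with a mean count of 10.2 replaced the leading row. The cause was not tested. No paired analysis was possible because the table holds no values per library, and leaving out a replicate was not run for that reason. The widest intervals were those of Timeless, Wdhd1, Clspn and Cdc6, and smaller changes of these genes could not be seen.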
